A study of Homo sapiens with 4 samples.

Results

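ARAF and BRAF are the RAF kinases in the deposited gene table, and both were described by the rows that carry their symbols, which are 2 of 2864 genes with values. They were chosen as the drug target and its relative, not by their measured values, though earlier results of these data were known. RNA was sequenced from A375, an established human melanoma cell line, with 1 library for each of 4 conditions. A375P were parental cells without treatment, and A375R was a vemurafenib-resistant strain derived from A375 by months of stepwise increasing vemurafenib and labelled as under continuous treatment. A375+DMSO cells received the solvent DMSO at 1‰ for 48 h, and A375+VEM cells received 2 μM vemurafenib for 48 h. All 4 libraries came from the same line in the same medium, carried 1 batch label, and were labelled wild type for genotype. A375R is a single strain, and nothing in the labels says that any condition was cultured more than once. No difference between libraries therefore has a replicate check, no p-value is given, and the intervals below cover counting error only, since reads are not independent molecules.

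RAF kinases relay signals from RAS at the cell membrane to MEK and then to ERK, the last kinase of the cascade, which drives growth and proliferation. RAF kinases act as homodimers and heterodimers, with BRAF the most active and ARAF the least active of the family. In melanoma BRAF is often mutated so that it signals without RAS, and A375 is known for such a mutation. Vemurafenib binds the ATP site of mutant BRAF, and cells that escape it often restore ERK activity through other RAF proteins or through receptors upstream. Genes named beyond CAC in alphabetical order, which include MEK and ERK, were not analysed here. Read counts per gene do not separate mutant from normal transcripts.

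BRAF (gene ID 673) lies at chr7:140433812-140624564 on the minus strand, and ARAF (gene ID 369) at chrX:47420499-47431320 on the plus strand, in the table's coordinates, for which the submitters' processing notes name hg19. The table gives a length of 2947 bases for BRAF and 3130 bases for ARAF. Both are kinases of 1 family, so their transcripts were compared for sequence that reads could share. In the GENCODE transcripts of GRCh38, a newer build than the table's, the coding sequences of ARAF-203 and BRAF-220 aligned over 794 bases with 72.0% identity, and the longest run common to both was 21 bases. That run, in capitals here with 24 bases on either side, lies in exon 11 of ARAF at chrX:47568764-47568832 on the plus strand and in exon 13 of BRAF at chr7:140776974-140777042 on the minus strand. They are shown because they are the place where a short read could least be told apart.
ARAF: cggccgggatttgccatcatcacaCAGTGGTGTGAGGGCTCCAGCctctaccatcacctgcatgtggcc
BRAF: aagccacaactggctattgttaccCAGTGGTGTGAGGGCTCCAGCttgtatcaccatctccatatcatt
A read of 22 bases or more from either coding sequence therefore has no exact match in the other.

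The pseudogenes of both kinases took almost no reads. ARAFP1, ARAFP2 and ARAFP3 are copies of ARAF on chromosome 7 with 81.8%, 83.6% and 85% identity to it, and each had 0 reads in all 4 libraries. BRAFP1, a copy on chromosome X with 94.3% identity to BRAF over 2677 bases and a shared run of 111 bases, had 0, 1, 0 and 1 reads in A375P, A375R, A375+DMSO and A375+VEM. The copies can share reads with their parent genes, and how the authors' counting treated such reads is not given in the sources used here. The GENCODE transcript BRAF-220 has 6458 bases, of which 3935 follow the coding sequence, so the table's BRAF model of 2947 bases leaves out much of that tail. Protein-coding transcripts of ARAF ranged from 1271 to 2504 bases. The level of BRAF relative to ARAF in TPM, a count per length scaled to 1 total per library, depends on these lengths, whereas a ratio of 1 gene between libraries does not.

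ARAF was the more abundant kinase transcript in every library. ARAF had 1192 reads in A375P and 1268 in A375R, against 1374 in A375+DMSO and 1364 in A375+VEM. On the TPM scale its level was 44.4 in A375P and 52.3 in A375R, against 54.9 in both A375+DMSO and A375+VEM. A375P was the lowest library and the other 3 lay close together, with overlapping exact Poisson intervals of 49.5 to 55.3 for A375R, 52.0 to 57.9 for A375+DMSO and 52.0 to 57.9 for A375+VEM. The interval of A375P, 41.9 to 47.0, lay below all of them. These intervals hold on the TPM scale only. The log2 ratio of ARAF in A375+VEM against A375P was 0.30 on it. It fell to 0.15 with a median ratio of 1, 0.078 with edgeR's TMM factors and 0.11 with DESeq2's size factors.

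BRAF split the libraries differently. BRAF had 713 reads in A375P and 688 in A375R, against 479 in A375+DMSO and 460 in A375+VEM. Its TPM was 28.2 in A375P and 30.2 in A375R, against 20.3 and 19.7 in A375+DMSO and A375+VEM. The untreated parental and the resistant library were the high pair, with overlapping intervals of 26.2 to 30.4 and 27.9 to 32.5. The solvent and the acute drug library were the low pair, with overlapping intervals of 18.5 to 22.2 and 17.9 to 21.5, and the pairs did not overlap each other. The labels give vemurafenib exposure for 1 library of each pair, A375R and A375+VEM. The paper describes its sequencing as these same pairs, A375R with A375P and vemurafenib with solvent. The split of BRAF therefore cannot be told apart from the study's pairs.

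**Figure D1:**
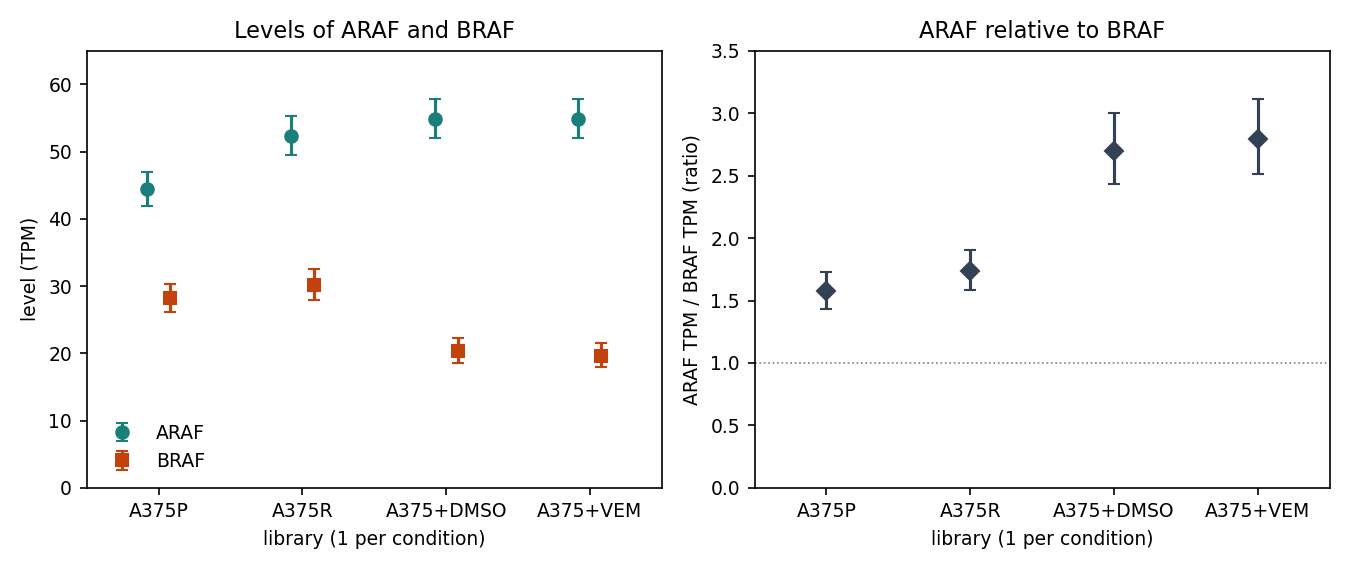
Levels of ARAF (circles) and BRAF (squares) in TPM for the 4 libraries, with exact Poisson 95% intervals, and the ratio of ARAF to BRAF TPM with exact Clopper-Pearson 95% intervals. ARAF lies above BRAF in each library, and the ratio is 1.57 and 1.74 in A375P and A375R but 2.70 and 2.79 in A375+DMSO and A375+VEM.

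Over the 4 libraries ARAF averaged 51.6 TPM with a coefficient of variation of 9.58%, and BRAF averaged 24.6 TPM with a coefficient of variation of 21.9%. The highest library exceeded the lowest by 1.24 times for ARAF and by 1.53 times for BRAF. Among 1482 genes that reached 1 TPM in all 4 libraries, 98 genes (6.61%) had a narrower log2 range than the 0.30 of ARAF. For BRAF, with a log2 range of 0.61, 381 genes (25.7%) were narrower, and the median range of all these genes was 0.98. These coefficients are taken across conditions and are not replicate errors.

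The resistant strain was compared with its parental cells to ask how long-term drug exposure altered the target and its relative. ARAF was 1.18 times as high in A375R as in A375P (95% interval 1.09 to 1.28), a log2 ratio of 0.24. BRAF was 1.07 times as high, with an interval of 0.961 to 1.19 that includes 1, and a log2 ratio of 0.09. Neither passed 1.5-fold, counted here on TPM + 0.1 among genes that reached 1 TPM in either library, while 44.3% of 1689 genes did. In this pair 25.6% of genes had a smaller absolute change than ARAF and 10.8% a smaller one than BRAF. The small rise of BRAF depended on the scaling, because its log2 ratio of 0.09 lay beside a median of 0.10 over all genes. It was -0.0037 with that median set to 0, 0.022 with edgeR's TMM factors and 0.015 with DESeq2's size factors. A 1.5-fold rise or fall of BRAF lay outside this interval, which covers counting error only. A change of that size between resistant and parental cells was not tested, because each condition has 1 library. Against A375+DMSO the BRAF ratio of A375R was 1.48, with an interval of 1.32 to 1.67 that includes 1.5.

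The 48 h treatment was compared with its solvent to ask what acute inhibition does to the same transcripts. ARAF in A375+VEM was 1.00 times its level in A375+DMSO (0.927 to 1.08). BRAF was 0.967 times as high (0.849 to 1.10), a log2 ratio of -0.05. Again neither passed 1.5-fold, against 46.2% of 1784 genes, and 6.17% of genes moved less than BRAF while 0% moved less than ARAF. On the TPM scale ARAF was thus the gene with the smallest absolute change of this pair, a rank that depends on that scaling. The median log2 ratio of all genes in this pair was 0.11, so relative to it ARAF stood at -0.11 and BRAF at -0.15. The ratio of A375R to A375P exceeded that of A375+VEM to A375+DMSO by 1.18 times for ARAF (1.06 to 1.31) and by 1.10 times for BRAF (0.936 to 1.30), by a Wald interval on log counts.

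The libraries without vemurafenib had larger log2 differences in both kinases than either study pair, although for ARAF the interval overlapped that of A375R against A375P. ARAF was 1.24 times as high in A375+DMSO as in A375P (1.14 to 1.34), and BRAF was 0.720 times as high (0.640 to 0.810). The genes moved in opposite directions, with log2 ratios of 0.30 and -0.47 beside a median of 0.09 over all genes. Neither passed 1.5-fold, and 45.7% of 1720 genes did. Solvent, time in culture, library and the study's sequencing pair cannot be told apart in this comparison. It is the only measure here of how far libraries without the drug lie from each other.

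Against the solvent library in place of A375P, the resistant strain showed the reverse weights. BRAF was 1.48 times as high in A375R as in A375+DMSO (1.32 to 1.67), just inside 1.5-fold, whereas ARAF was 0.953 times as high (0.883 to 1.03). In this pair 20.5% of 1702 genes passed 1.5-fold, and 78.6% of genes had a smaller absolute change than BRAF. The reading of BRAF in A375R thus turned on the control, with a log2 ratio of 0.09 against A375P and 0.57 against A375+DMSO. These comparisons share the A375R library.

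The remaining pairs set the acutely treated cells against A375P and A375R. BRAF in A375+VEM was 0.696 times its level in A375P (0.618 to 0.784), and ARAF was 1.23 times its level there (1.14 to 1.34). Neither passed 1.5-fold on the TPM scale, against 62.1% of 1782 genes. BRAF did pass it there under each of 3 other scalings, with log2 ratios of -0.67, -0.75 and -0.72 in place of -0.52. Under the same scalings ARAF fell to log2 ratios of 0.15, 0.078 and 0.11 in place of 0.30. Between A375+VEM and A375R, which share exposure to the drug, BRAF was 0.652 times as high in the acutely treated cells (0.578 to 0.735) and ARAF 1.05 times as high (0.971 to 1.13). BRAF in this pair, with a log2 ratio of -0.61, was the single member value past 1.5-fold on the TPM scale in the 6 pairs, and 54.7% of 1773 genes were past it too.

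**Figure D2:**
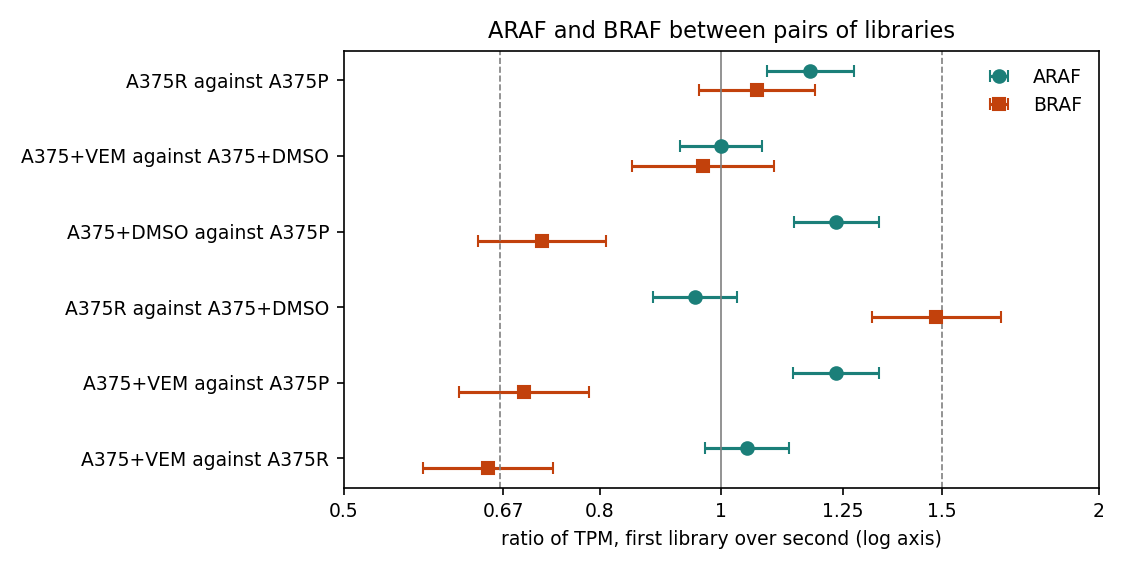
Ratio of TPM between the libraries of each of the 6 pairs on a log axis for ARAF (circles) and BRAF (squares), with exact Clopper-Pearson 95% intervals; dashed lines mark 1.5-fold in either direction. BRAF in A375+VEM against A375R, at 0.652, is the value past a dashed line, and both study pairs at the top lie between 0.967 and 1.18.

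Across the 4 libraries the balance of the kinases ranged more widely than their sum, but between A375R and A375P it did not. ARAF exceeded BRAF in TPM by 1.57 times in A375P (1.43 to 1.73) and by 1.74 times in A375R (1.58 to 1.91). The same ratio was 2.70 in A375+DMSO (2.43 to 3.0) and 2.79 in A375+VEM (2.51 to 3.11). BRAF therefore made up 38.8% and 36.6% of the summed TPM of both kinases in A375P and A375R, and 27.0% and 26.4% of it in A375+DMSO and A375+VEM.

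The summed TPM itself was 72.7 in A375P and 82.5 in A375R, against 75.2 and 74.5 in A375+DMSO and A375+VEM. The change of the ARAF to BRAF ratio between libraries is free of the scaling of the libraries and of gene length. It was 1.10 between A375R and A375P (0.965 to 1.26) and 1.03 between A375+VEM and A375+DMSO (0.889 to 1.20), and both intervals include 1. Between A375+DMSO and A375P it was 1.72 (1.49 to 1.98), and between A375+VEM and A375R it was 1.61 (1.39 to 1.86).

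Among 37 protein kinase genes listed from the table, ARAF ranked 9th and BRAF 14th by mean TPM. The list is a choice and leaves out kinase-like genes such as ADCK2, so ranks and neighbours hold within it only. ARAF stood between AURKA, a mitotic spindle kinase with a mean of 58.8 TPM, and BRSK1, a kinase of the AMPK family with 37.6 TPM. BRAF stood between BUB1, a spindle checkpoint kinase with 25.3 TPM, and ACVR1, a BMP type I receptor with 19.5 TPM. These means pool unlike conditions, and AURKA dropped to 6.52 and BUB1 to 1.2 TPM in A375+VEM. Within A375P, A375R, A375+DMSO and A375+VEM, ARAF ranked 8, 9, 8 and 6, and BRAF ranked 12, 13, 14 and 10. Of 24 kinases that reached 1 TPM in all 4 libraries, ARAF had the 3rd narrowest log2 range and BRAF the 11th, beside a median of 0.70. In A375R against A375P, 6 of 30 kinases compared were past 1.5-fold higher and 3 lower, beside 44.3% of all genes in either direction. In A375+VEM against A375+DMSO, 5 of 32 were higher and 6 lower, beside 46.2%. Between the libraries without the drug, A375+DMSO against A375P, 10 of 31 were higher and 7 lower, beside 45.7%.

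The genes whose pattern over the 4 libraries lay nearest to each kinase were found by the root mean square difference of log2(TPM + 0.1) after each gene's mean was subtracted. For BRAF the nearest was ANKRA2, an ankyrin repeat protein, at 0.020, with TPM of 33.8, 35.0, 24.2 and 22.9 in A375P, A375R, A375+DMSO and A375+VEM. ANKLE1 (0.062), BAZ1A (0.066), ATXN10 (0.074) and ATF3 (0.075), a stress-induced transcription factor, followed. All 5 were higher in A375P and A375R than in A375+DMSO and A375+VEM, which is the shape they were selected for.

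For ARAF the nearest was BZW2, a regulator of translation start, at 0.032, with TPM of 130, 156, 161 and 154 in the same order. AGFG2 (0.045), AMBP (0.050), AFG3L1P (0.051) and C7orf25 (0.052) came next. ARAF and BRAF differed by 0.37 on this measure, and 535 of 1481 genes were nearer to BRAF than ARAF was. With 4 libraries many genes share any given shape.

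**Figure D3:**
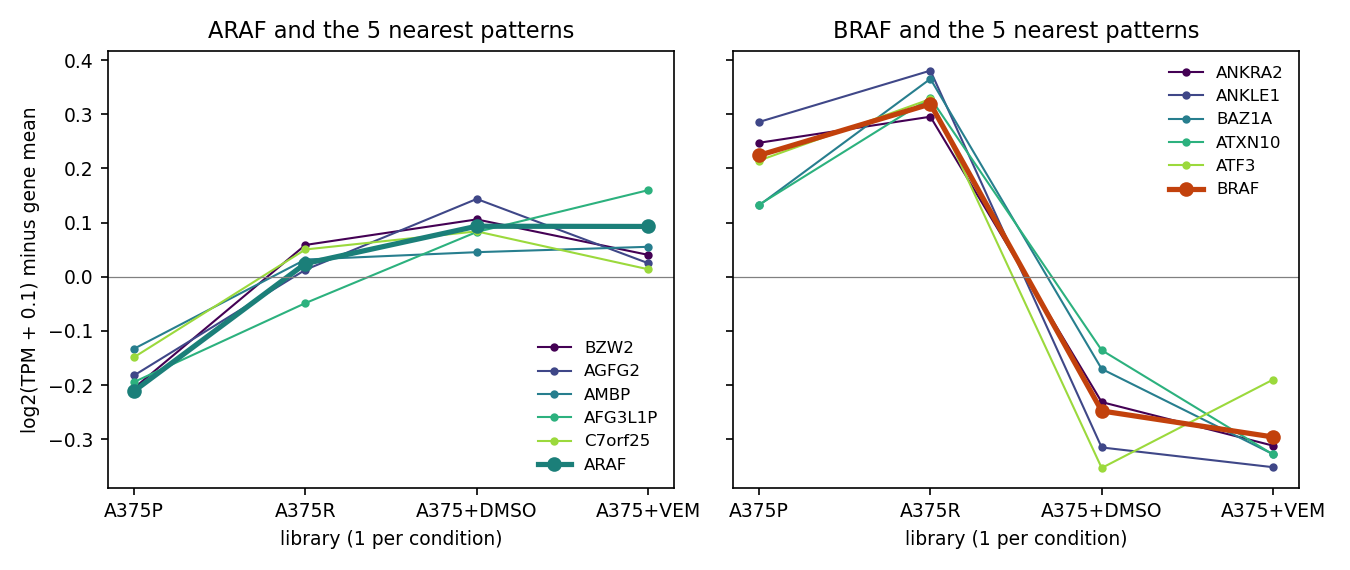
Pattern of each kinase (thick line) and of its 5 nearest genes (thin lines) over the 4 libraries, as log2(TPM + 0.1) minus the mean of the gene; lines join conditions for reading only. BRAF and its neighbours drop between A375R and A375+DMSO, while ARAF is lowest in A375P and nearly level in the other 3 libraries.

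Genes near BRAF on chromosome 7 did not share 1 pattern. ADCK2, a mitochondrial kinase-like gene 38.9 kb away, had TPM of 35.1, 48.4, 44.1 and 39.3 in A375P, A375R, A375+DMSO and A375+VEM, so that its lowest library was one where BRAF was high. AGK, the acylglycerol kinase gene 627 kb away, had 38.7, 40.1, 38.3 and 29.3 TPM. C7orf55-LUC7L2 had 125, 79.2, 79.9 and 76.3 TPM, and ATP6V0A4, a proton pump subunit, had 2.36, 18.4, 1.42 and 2.74 TPM with its peak in A375R. Near ARAF, ACTBP1 and CACNA1F had 10 reads or fewer in every library.

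Proteins that scaffold or tune the cascade were taken from a short list of genes that sort within the table. Of 3 compared in A375R against A375P, 2 were past 1.5-fold higher and 0 lower, beside 44.3% of all genes, with a median log2 ratio of 0.90 beside 0.10 over all genes. ARRB1, the beta-arrestin that can hold RAF, MEK and ERK together, had TPM of 2.99, 10.9, 8.58 and 11.1 in A375P, A375R, A375+DMSO and A375+VEM. It was 3.64 times as high in A375R as in A375P (3.09 to 4.29), and 2.87 times as high in A375+DMSO as in A375P (2.42 to 3.40).

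ARRB2, the other beta-arrestin, had TPM of 26.1, 48.7, 49.6 and 45.1 in that order. A375P was thus the low library for both beta-arrestins, with the other 3 above it, as for ARAF. BRAP, which holds back the KSR scaffold until RAS is active, had 25.6, 22.6, 23.6 and 24.2 TPM and was not past 1.5-fold. APBB1IP had 1 read or fewer in each library and was not compared. In A375+VEM against A375+DMSO 0 of 3 were past 1.5-fold, beside 46.2% of all genes, and in A375+DMSO against A375P 2 of 3 were higher, beside 45.7%.

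Proteins that bind or phosphorylate RAF kinases gave 1 higher and 1 lower of 4 compared in A375R against A375P, with a median log2 ratio of 0.32, and 44.3% of all genes were past 1.5-fold. The higher gene, AKAP13 at a log2 ratio of 0.62, was no longer past 1.5-fold with the median of all genes set to 0. BAG1, a co-chaperone that binds and activates RAF kinase, had TPM of 71.5 in A375P and 24.8 in A375R, against 22.2 in A375+DMSO and 27.4 in A375+VEM, and A375P stood alone as the high library. AKT1 and AKT2 are kinases that phosphorylate and restrain RAF proteins. AKT1 had 59.4, 87.1, 96.5 and 103 TPM, and AKT2 had 53.9, 57.3, 64.5 and 75.9 TPM in the same order. AKAP13, an anchoring protein for RAF and KSR, had 13.3, 20.5, 15.8 and 26.1 TPM, higher in each drug-exposed library than in the unexposed ones. It was the 1 gene of these 4 past 1.5-fold in A375+VEM against A375+DMSO. In A375+DMSO against A375P, 1 was higher and 1 lower of 4. The shares of all genes in these pairs were 46.2% and 45.7%.

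Receptors and ligands upstream of RAS gave 1 higher and 3 lower of 7 in A375R against A375P, and 3 higher and 2 lower in A375+VEM against A375+DMSO. In A375+DMSO against A375P, 0 were higher and 5 lower, with a median log2 ratio of -1.17. The shares of all genes past 1.5-fold in these pairs were 44.3%, 46.2% and 45.7%. AXL, a receptor tyrosine kinase, had 659, 575, 358 and 92.4 TPM in A375P, A375R, A375+DMSO and A375+VEM and was 0.258 times as high in A375+VEM as in A375+DMSO (0.249 to 0.268). AREG, an EGFR ligand, had 81, 238, 85 and 1 reads. With 1 read in A375+VEM, its ratio to A375+DMSO was 0.0118 with an interval of 0.000297 to 0.0678.

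The smaller receptor and ligand genes went several ways. BTC, another EGFR ligand, had 1.86, 2.02, 0.67 and 4.56 TPM, and ALK, a receptor tyrosine kinase, had 1.60, 0.72, 0.66 and 2.31 TPM, both highest in A375+VEM. ARTN, a ligand of the RET system, had 7.20, 1.93, 1.22 and 5.57 TPM, and BDNF, a ligand of TrkB, had 21.8, 4.51, 2.59 and 2.12 TPM. A375P was the highest library for ARTN and BDNF. ANGPT1, a ligand of TIE2, had 9.26, 9.79, 7.98 and 6.75 TPM, and ANGPT2 had 11 reads or fewer in each library.

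Genes for BH3-only proteins, which promote apoptosis and are held down by ERK signaling, did not move as 1 group in the acute pair. In A375+VEM against A375+DMSO, 2 of 4 were higher and 1 lower, beside 46.2% of all genes, with a median log2 ratio of 1.10 beside 0.11 over all genes. BMF had 1.76, 3.49, 3.77 and 128 TPM in A375P, A375R, A375+DMSO and A375+VEM, and was 34.0 times as high in A375+VEM as in A375+DMSO (28.8 to 40.4). BCL2L11, which encodes BIM, had 3.66, 3.08, 4.31 and 13.6 TPM, 3.15 times as high in that pair (2.70 to 3.69).

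A375+VEM was thus the high library for BMF and BCL2L11, while ARAF and BRAF had nearly the same level in A375+VEM and A375+DMSO. BIK had 4.29, 9.35, 3.67 and 1.19 TPM, the lowest in A375+VEM. BAD had 46.6, 74.7, 77.5 and 115 TPM, with a log2 ratio of 0.57 in A375+VEM against A375+DMSO that stayed inside 1.5-fold. In A375R against A375P, 3 of 4 were higher and 0 lower, beside 44.3% of all genes, and the count was 2 with the median of all genes set to 0. In A375+DMSO against A375P, 2 were higher and 0 lower, beside 45.7%.

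**Figure D4:**
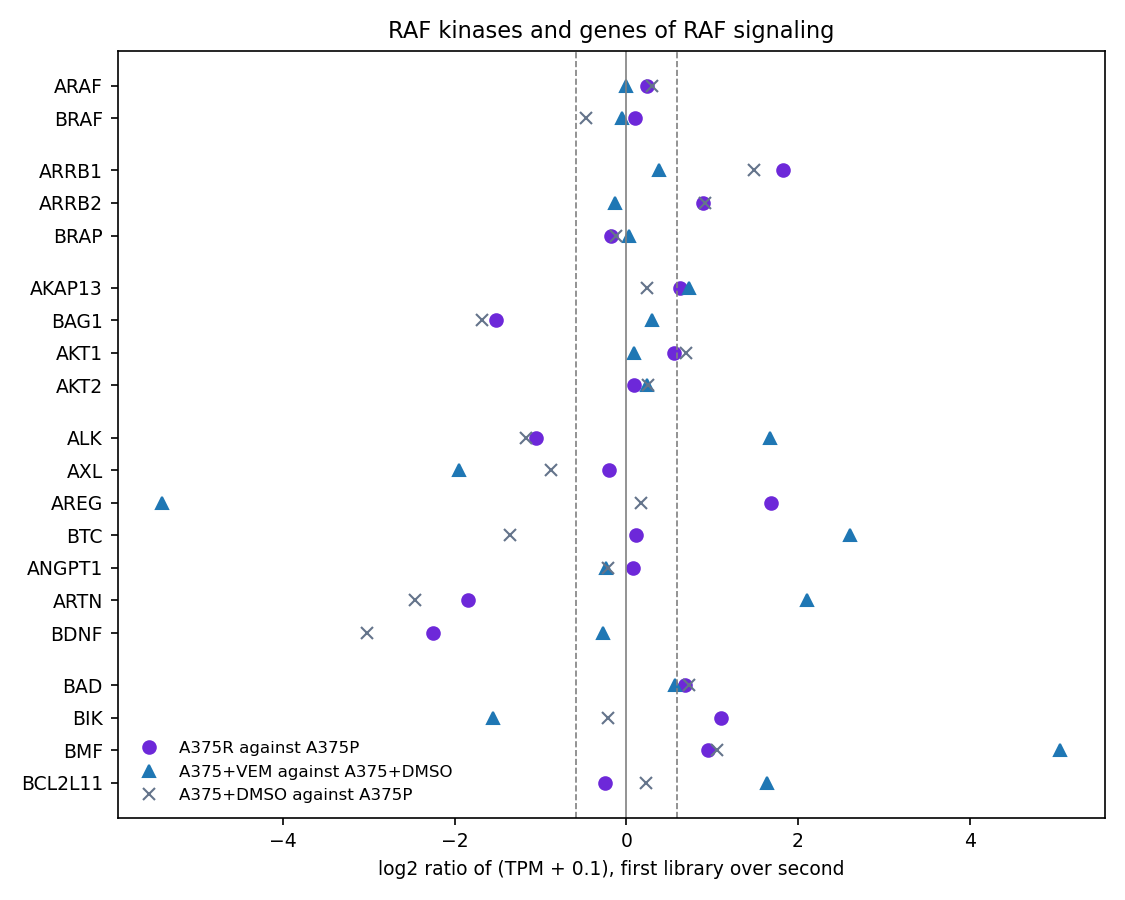
Log2 ratio of (TPM + 0.1) for ARAF, BRAF and the genes of the 4 signaling lists compared in A375R against A375P (circles), A375+VEM against A375+DMSO (triangles) and A375+DMSO against A375P (crosses); dashed lines mark 1.5-fold. Both RAF kinases lie inside the dashed lines in all 3 pairs, while BMF reaches 5.05 and AREG -5.41 in A375+VEM against A375+DMSO.

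The line was checked against markers of melanoma and of other cell types. Of the melanoma or melanocyte markers, APOE (11.3 to 26.3 TPM), BACE2 (20.9 to 47.1 TPM), BCAN (15.4 to 34.1 TPM) and BCL2A1 (4.24 to 37.5 TPM) were present in each library, while ABCB5 had 0 to 6 reads. Of the markers of other types, ADIPOQ, AIF1, BANK1, BLK and ACTG2 had 0 to 9 reads and AFP 5 to 25 reads. ALB, a liver gene, had 46.4 to 64.5 TPM, above each listed melanoma or melanocyte marker in the same library. Its part in the results was not tested, and these markers do not settle the identity of the cells. Counts over the table summed to 1891215 to 2054277 per library and their TPM to between 8.48% and 8.94% of the library total, so these sums cover part of each library and are not its depth.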

How the data were processed

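RNA from 4 conditions of A375 cells was sequenced, with 1 library each. The authors deposited 1 table that lists, for each gene, its position, its length, and for every library a read count and a TPM value. The deposited counts are whole numbers without normalization. The deposited TPM relates the count to gene length and to 1 fixed library total, which was checked on the values. The submitters' processing notes name hg19, HISAT2, HISAT, TopHat2 and Bowtie2. The counting program and its strand setting are not given in the sources used here. The table holds 2864 genes, and 1 incomplete row was left out.

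Levels carry exact Poisson 95% intervals on the counts, and ratios of TPM carry Clopper-Pearson 95% intervals, also exact, from the reads of both libraries. Log2 ratios and the 1.5-fold threshold are on TPM + 0.1, which understates changes of low genes, among genes that reached 1 TPM in either library. edgeR and DESeq2 gave scaling factors only. These factors, like the medians and shares of all genes, came from the genes of this table, which are part of each library. The alternatives were these scalings, a median ratio of 1, other pseudocounts, filters and thresholds, the other control, and counts without gene length. The 1.5-fold call, for A375R against A375P, and the coverage of the ratio interval were tested on simulated Poisson counts. Such counts hold counting error only, and the other steps were not simulated.

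The members and lists were chosen with earlier results of these data known. The genes named were the kinases, their pseudogenes, the list members, adjacent kinases in order of TPM, genes within 2 Mb, and the 5 nearest patterns for each. A kinase of the lists is not reported here and was left out of their counts. BANCR was picked after its values were seen. Scaling factors came from R 4.3.3 with edgeR 4.0.16 and DESeq2 1.42.0. Ratios, intervals and plots were made in Python 3.11.15 with scipy 1.17.1, numpy 2.4.6, matplotlib 3.10.9 and pandas 2.3.3.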

Additional observations from a re-analysis of the deposited data

How the results depend on the processing

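No paired analysis was possible because each condition has 1 library, and for the same reason no replicate could be left out. Of the values for the kinases and gene lists recomputed under other settings, 132 stayed within their counting interval, within 1.5 times of a count or close to a median, and 26 did not. The 132 include other pseudocounts and the ratio without gene length, which could hardly move values at these levels. The count is therefore no measure of robustness. Scaling changed 1 member call: the log2 ratio of BRAF in A375+VEM against A375P was -0.52 and passed 1.5-fold at -0.67 with a median ratio of 1, -0.75 with edgeR's TMM factors and -0.72 with DESeq2's size factors. ARAF in that pair fell from 0.30 to 0.15, 0.078 and 0.11 in the same order. ARAF in A375+VEM against A375R turned from 0.07 to -0.03, -0.084 and -0.049, and in A375+VEM against A375+DMSO it was -0.15 with TMM. With A375+DMSO as the control of A375R, the log2 ratio was -0.069 for ARAF and 0.57 for BRAF. With A375P as the control of A375+VEM it was 0.30 for ARAF and -0.52 for BRAF.

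At 2-fold the share of all genes past the threshold was 22.2% for A375R and 26.0% for A375+DMSO, both against A375P. It was 26.4% in A375+VEM over A375+DMSO, 8.64% in A375R against A375+DMSO and 34.4% in A375+VEM against A375R. For A375+VEM against A375P it was 42.0%. The scaffold list then had 1 of 3 genes past it in each of the 3 pairs against A375P. The RAF-binding list had 1 of 4 in each of those pairs and 0 of 4 in A375+VEM against A375+DMSO. With a median ratio of 1 it had 1 of 4 past 1.5-fold in A375R against A375P. At 2-fold, receptors and ligands had 2 of 6 in A375R against A375+DMSO. BH3-only genes had 1 of 4 in A375R and 1 of 4 in A375+DMSO against A375P. Against A375P the protein kinases had 7 of 31 for A375+DMSO and 11 of 32 for A375+VEM, and they had 5 of 30 in A375R against A375+DMSO. At 1.5-fold, 5 of 6 receptors and ligands were higher and 0 lower in A375R against A375+DMSO, beside 20.5% of all genes. Of 30 protein kinases, 3 were higher and 5 lower there. For A375+VEM against A375P at 1.5-fold, 62.1% of all genes were past it. There 2 of 3 scaffold genes were higher and 0 lower, and 2 of 4 RAF-binding genes higher and 1 lower. Of 32 protein kinases, 9 were higher and 8 lower. Without gene length the ARAF to BRAF ratio was 1.67, 1.84, 2.87 and 2.97 by counts in A375P, A375R, A375+DMSO and A375+VEM. The spread between cultures of 1 condition was not measured, and genes with few reads, such as AREG in A375+VEM, have wide counting intervals.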

Other observations

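BANCR, a long noncoding RNA named for its activation by mutant BRAF, lies at chr9:71911597-71921972 on the minus strand in the table's coordinates and was chosen after its values were seen. Its counts were 0 reads in A375P and 5 in A375R, against 56 in A375+DMSO and 187 in A375+VEM, or 0, 0.957, 10.4 and 34.9 TPM. A375P and A375R were the low libraries and A375+DMSO and A375+VEM the high ones, the reverse of the order of BRAF. BANCR was 3.36 times as high in A375+VEM as in A375+DMSO (95% interval 2.48 to 4.62). Against the 0 reads of A375P, the exact 95% interval of the ratio began at 15.7 for A375+DMSO and at 54.2 for A375+VEM. In A375R it was 0.0922 times its level in A375+DMSO (0.0288 to 0.228).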
